A study of Mus musculus with 8 samples.

Results

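The genes described here move glucose into the cell, carry it through glycolysis and the pentose phosphate path, and set the fate of pyruvate. They were chosen by name: 35 genes were listed, and every probe whose platform annotation gave a listed symbol or an older alias was taken. Of these, 29 genes had a named probe, out of 16593 named genes on the array, with 43 probes between them. Gpi1, Eno1, Ldhb, G6pdx, Pgd and Rpe had no probe under their names, so their expression was not analysed here, though their promoters are counted below. A probe was tested when its detection p-value was under 0.05 on at least 4 of the 8 arrays, which 35 probes of 26 genes met.

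RNA came from CD8+ T cells, the precursors of cytotoxic T lymphocytes, of C57BL/6 mice. One group was labelled knockout for ASC, the adaptor protein encoded by Pycard that assembles inflammasomes, and the other wild type, with 4 samples and 4 single-colour Illumina MouseRef-8 arrays each. The labels do not give the allele, the age or sex of the mice, any stimulation, or whether replicates came from separate animals, so every p-value here rests on the spread among these samples, and some of that spread may be technical. No source used here names the slide of an array, and no batch was tested.

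Glycolysis splits glucose into pyruvate through a hexose phase, which spends ATP, and a triose phase, which returns it. Activated T cells take up more glucose and send much of the pyruvate to lactate even with oxygen present. The pentose phosphate path branches from the first hexose phosphate and yields NADPH and ribose for nucleotides. The transcription factors Myc and HIF-1 are known to drive many of these genes, HIF-1 through the core letters ACGTG in their promoters.

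The ASC knockout label held at its gene. Pycard was detected on 0 of 4 knockout arrays and on 4 of 4 wild type arrays (limma adjusted p = 1.16e-09). The share of probes detected was 44.9% to 45.4% on knockout arrays and 42.8% to 44.5% on wild type arrays, ranges that did not overlap, and its part in the values of dim probes such as that of Pgk1 was not tested. The median probe signal ran from 127.9 to 133.8. Of the CD8 T cell markers, Cd8b1, Cd3d, Cd3e, Cd3g and Cd2 were detected on all 8 arrays, while the only Cd8a probe was detected on none and Trac had no named probe. Across all 11270 tested probes, 95 passed limma's adjusted p of 0.05, or 0.843%, with 0.435% higher and 0.408% lower in the knockout.

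Promoters are shown for Pgk1, the only gene of the set that passed the test. Those of Aldoa, Pgam1 and Tpi1 are shown too, from the 6 genes lower in the knockout at an unadjusted p under 0.05. Ldha is shown because its window held more copies of the motif than any other of the set. Each sequence is the 250 bases before a gene start in RefSeq's GRCm38.p6, written 5′ to 3′ on the gene's strand. Capitals mark ACGTG or its reverse complement CACGT, and overlapping copies run together.
Pgk1, chrX:106186850-106187099, plus strand: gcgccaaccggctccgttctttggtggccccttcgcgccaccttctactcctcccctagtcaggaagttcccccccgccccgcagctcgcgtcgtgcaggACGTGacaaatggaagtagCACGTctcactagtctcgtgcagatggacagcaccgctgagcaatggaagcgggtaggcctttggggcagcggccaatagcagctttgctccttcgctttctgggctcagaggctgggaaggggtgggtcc
Aldoa, chr7:126799179-126799428, minus strand: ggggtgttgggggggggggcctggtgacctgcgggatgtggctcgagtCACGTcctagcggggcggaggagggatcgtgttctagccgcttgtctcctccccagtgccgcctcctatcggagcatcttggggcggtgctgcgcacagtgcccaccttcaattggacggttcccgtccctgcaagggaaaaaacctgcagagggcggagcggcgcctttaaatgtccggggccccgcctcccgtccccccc
Pgam1, chr19:41911621-41911870, plus strand: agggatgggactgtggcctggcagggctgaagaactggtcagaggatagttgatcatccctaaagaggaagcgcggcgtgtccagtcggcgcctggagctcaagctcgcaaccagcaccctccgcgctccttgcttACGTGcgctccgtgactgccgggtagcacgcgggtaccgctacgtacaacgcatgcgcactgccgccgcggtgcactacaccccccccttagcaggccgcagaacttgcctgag
Tpi1, chr6:124814159-124814408, minus strand: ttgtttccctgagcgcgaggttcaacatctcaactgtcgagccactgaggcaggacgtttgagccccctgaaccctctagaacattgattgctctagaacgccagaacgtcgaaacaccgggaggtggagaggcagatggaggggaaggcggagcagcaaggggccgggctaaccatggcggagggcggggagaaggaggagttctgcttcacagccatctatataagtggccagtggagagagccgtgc
Ldha, chr7:46845554-46845803, plus strand: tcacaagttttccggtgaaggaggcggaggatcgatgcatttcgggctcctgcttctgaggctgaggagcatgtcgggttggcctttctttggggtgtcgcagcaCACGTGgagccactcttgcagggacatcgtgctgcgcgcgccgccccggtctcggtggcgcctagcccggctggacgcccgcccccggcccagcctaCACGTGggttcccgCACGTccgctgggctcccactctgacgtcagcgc
The Pgk1 window held 2 copies, at 150 and 131 bases before the start, and the Aldoa and Pgam1 windows 1 each. The Tpi1 window held 0 and the Ldha window 5. The Ldha copies at 145 and 144 bases before the start overlap as CACGTG, read on both strands, as do those at 48 and 47. Each of them was counted. Aldoa has 2 other listed windows, with 1 and 0 copies. The first of these overlaps the window shown, and its 1 copy is the same one. Ldha has 1 other window, with 0. Promoters were listed for 34 of the 35 genes, and 14 of them, or 41.2%, had the motif in at least 1 window, against 18.5% of all 27025 genes with a listed promoter. Among the 6 genes lower at an unadjusted p under 0.05, 2 had it, Aldoa and Pgam1. The windows of Pfkp, Pfkl and Gapdh, which are not shown, held 0 copies. These matches describe letters in a window and were not tested.

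In the triose phase, Pgk1, which encodes phosphoglycerate kinase, the first ATP-yielding enzyme of glycolysis, was the only gene of the 26 tested that passed, where 1.03% of all named genes did at their brightest probe. It has 1 named probe, ILMN_2797973. Its signal before normalization was 167.8, 171.7, 179.1 and 166.1 on knockout arrays 1 to 4, against 153.8, 135, 131.5 and 127.8 on wild type arrays 1 to 4. All 4 knockout arrays lay above all 4 wild type arrays, an order found at 3.91% of all tested probes. The probe was detected on 4 of 4 knockout arrays and 1 of 4 wild type arrays, wild type replicate 1, so in wild type the signal of this probe lay near background. It met the detection filter through its knockout arrays.

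**Figure D1:**
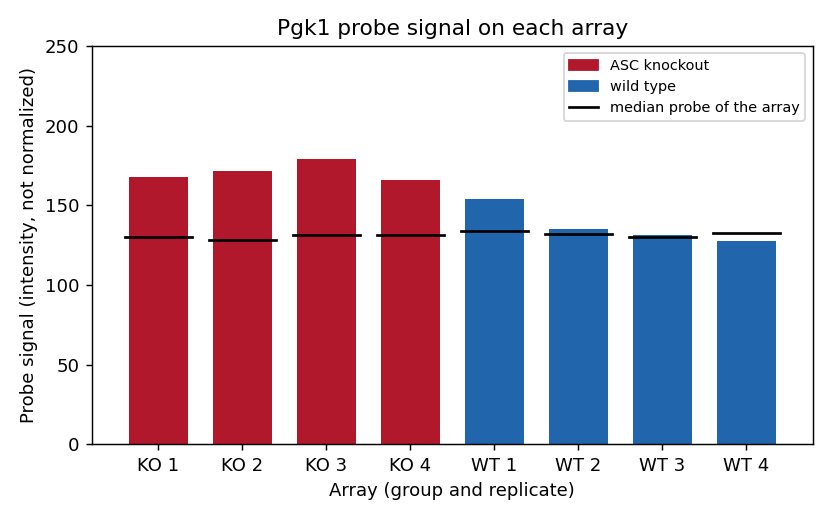
Signal of the Pgk1 probe, as intensity without normalization, on each of the 4 ASC knockout (red) and 4 wild type (blue) arrays, with the median probe of each array as a black line. Knockout arrays sit between 166.1 and 179.1 and wild type arrays between 127.8 and 153.8, close to the array medians.

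After background correction and normalization, Pgk1 was at 5.94, 6.22, 6.22 and 5.92 on knockout arrays and at 5.42, 4.84, 4.79 and 4.57 on wild type arrays, in log2 intensity. It rose by 1.17 ± 0.168 on the log2 scale in the knockout (SE, n = 4 per group, 95% interval 0.80 to 1.54, limma adjusted p = 0.0134), where 0.435% of all tested probes were called higher. The size depended on the background model. The difference was 0.66 with a background offset of 50 and 0.36 without background correction, with limma adjusted p-values of 0.00164 and 0.00648. Since 3 of 4 wild type arrays did not detect the probe, the 1.17 is a difference from a level near background and no exact fold. Without a detection filter the limma adjusted p was 0.0282. Without wild type replicate 2 it was 1.15 and no longer passed (limma adjusted p = 0.0522), while the other 7 fits without 1 array kept the call. The genome annotation lists Pgk1 pseudogenes, and whether the probe separates them was not tested. In wild type the Pgk1 probe averaged 4.9 in log2 intensity, against 14.76 for Gapdh and 8.9 for Pgam1 at their brightest probes. Those enzymes act just before and just after phosphoglycerate kinase. Whether the probe reports all Pgk1 transcripts was not tested.

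The other enzymes of the hexose and triose phases lay mostly on the opposite side. Leaving out Pgk1, 10 of 14 genes were below 0 at their brightest probe, with a median log2 difference of -0.22, and 0 passed limma's adjusted p. At an unadjusted p under 0.05, 6 of the 14 were lower and 0 higher, where 5.7% of all named genes were lower and 7.26% higher. The 6 were Tpi1, Pfkp, Pfkl, Aldoa, Pgam1 and Gapdh. Their unadjusted p-values are given only beside that share, since none of them held after adjustment.

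Tpi1, which encodes triose phosphate isomerase, was measured by 3 tested probes that all lay below 0. Its brightest probe, ILMN_1230137, was at 12.93, 12.69, 12.71 and 13.05 on knockout arrays and at 13.51, 13.40, 13.23 and 12.91 on wild type arrays, in log2 intensity. Only wild type replicate 4 fell within the knockout range. The log2 difference was -0.42 ± 0.139 (SE, n = 4 per group, limma adjusted p = 0.227). At the dimmer probe ILMN_1231447 the groups did not overlap, with 7.77, 7.70, 7.62 and 7.89 in the knockout and 8.30, 8.11, 7.91 and 8.13 in wild type. That difference was -0.36 ± 0.102, with limma adjusted p = 0.148. Groups lay apart in this direction at 4.21% of all tested probes. The third probe differed by -0.33 ± 0.155.

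Phosphofructokinase commits glucose to glycolysis, and its platelet and liver type subunits were lower than in wild type without passing. Pfkp (ILMN_1237695) was at 9.96, 9.70, 10.13 and 10.16 on knockout arrays, against 10.34, 10.22, 10.59 and 10.29 on wild type arrays. The Pfkp groups did not overlap, with the knockout below as at 4.21% of all tested probes. The log2 difference was -0.37 ± 0.122 (SE, n = 4 per group, limma adjusted p = 0.226). A dimmer Pfkp probe, whose groups overlapped, differed by -0.13 ± 0.0953. Pfkl (ILMN_1236539) was at 9.68, 9.35, 9.63 and 9.87 on knockout arrays, against 10.34, 10.08, 10.05 and 9.57 on wild type arrays. Wild type replicate 4 again lay within the knockout range, and the difference was -0.37 ± 0.162 (limma adjusted p = 0.362). A dim second Pfkl probe, detected on 3 of 4 knockout and 2 of 4 wild type arrays, was at -0.04 ± 0.152. The muscle type subunit Pfkm was at 0.04 ± 0.14 at its brightest probe (95% interval -0.27 to 0.35), with its other 2 probes also above 0.

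Aldoa encodes aldolase A, which splits the hexose into trioses. It lies within 20 Mb of Pycard on chromosome 7, as does Taldo1 of the pentose phosphate path. Aldoa was at 11.77, 11.83, 11.75 and 12.14 on knockout arrays and at 12.38, 12.20, 12.26 and 11.93 on wild type arrays, in log2 intensity. Knockout replicate 4 lay above wild type replicate 4, and the other arrays of the 2 groups were apart. The log2 difference was -0.32 ± 0.121 (SE, n = 4 per group, limma adjusted p = 0.301). The related Aldoc, detected on 2 of 4 knockout and 4 of 4 wild type arrays, was at -0.39 ± 0.2 (95% interval -0.83 to 0.05).

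Pgam1, the phosphoglycerate mutase that acts after Pgk1, was at 8.51, 8.20, 8.26 and 8.95 on knockout arrays and at 9.05, 8.96, 8.98 and 8.64 on wild type arrays. Knockout replicate 4 was near the wild type arrays, and the log2 difference was -0.42 ± 0.163 (SE, n = 4 per group, limma adjusted p = 0.301). Gapdh, which encodes glyceraldehyde phosphate dehydrogenase and often serves as a reference gene, was at 14.70, 14.53, 14.47 and 14.61 on knockout arrays and at 14.84, 14.72, 14.74 and 14.73 on wild type arrays at its brightest probe. Those groups did not overlap, with 14.70 on the highest knockout array and 14.72 on the lowest wild type array. The knockout lay below in this way at 4.21% of all tested probes. The Gapdh difference was -0.18 ± 0.08 (limma adjusted p = 0.375). A second Gapdh probe overlapped between groups, at -0.14 ± 0.092. Pkm, a pyruvate kinase gene, was at -0.14 ± 0.114. Eno3, the enolase best known from muscle, was above 0 at 0.35 ± 0.177 (95% interval -0.04 to 0.74). Gapdh, Aldoa, Pgam1 and Ldha have copies or pseudogenes in the genome annotation, which their probes may not separate.

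**Figure D2:**
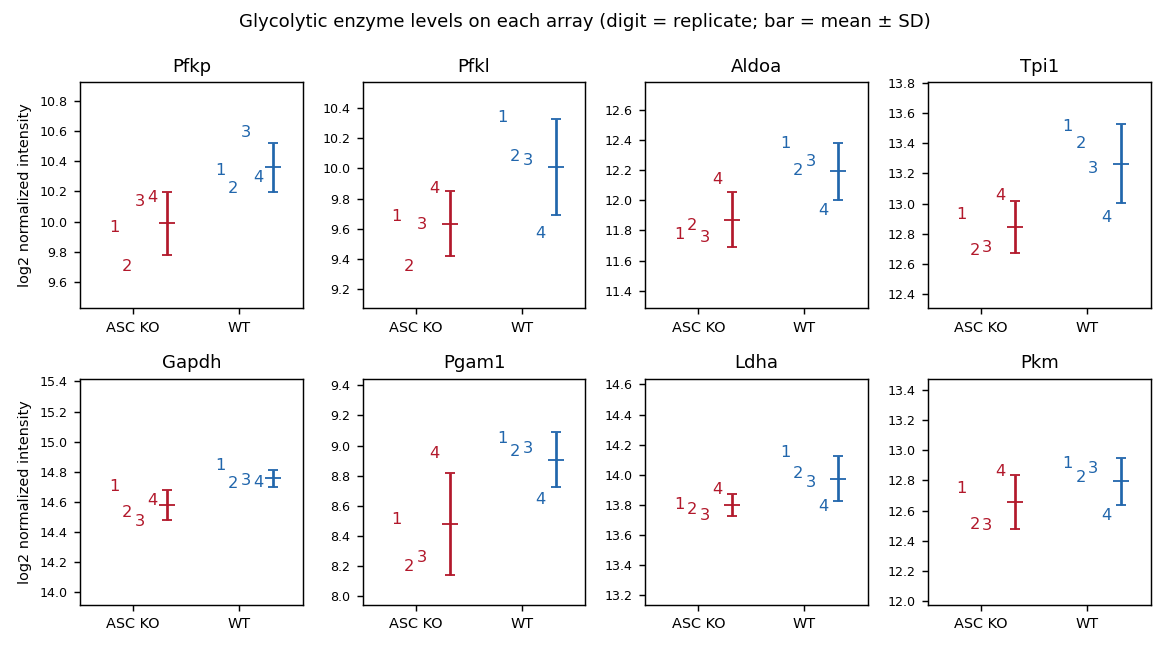
Log2 normalized intensity of 8 glycolytic genes at their brightest probe on each array, ASC knockout in red and wild type in blue, with digits for the replicate and a bar for the mean ± SD of 4 arrays. Every panel spans the same number of log2 units, and knockout replicate 4 lies above wild type replicate 4 in every panel except those of Pfkp and Gapdh.

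The arrays did not contribute evenly. For the 14 hexose and triose phase genes without Pgk1, the median deviation from each gene's mean over the 8 arrays was -0.049, -0.119, -0.204 and 0.101 on knockout arrays 1 to 4, against 0.176, 0.052, 0.204 and -0.146 on wild type arrays 1 to 4. Knockout replicate 4 thus lay with wild type replicates 1 to 3, and wild type replicate 4 with knockout replicates 1 to 3. Knockout replicate 4 was the highest knockout array for 8 of the 14 genes, or 57.1%, against 24.7% of all tested probes. Wild type replicate 4 was the lowest wild type array for 9 of the 14, or 64.3%, against 24.9% of all tested probes. These counts were made after the values were seen and were not tested. Over all tested probes the array medians stayed between -0.002 and 0.007. Quantile normalization holds such medians near 0, so they do not show whether the arrays were otherwise alike.

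**Figure D3:**
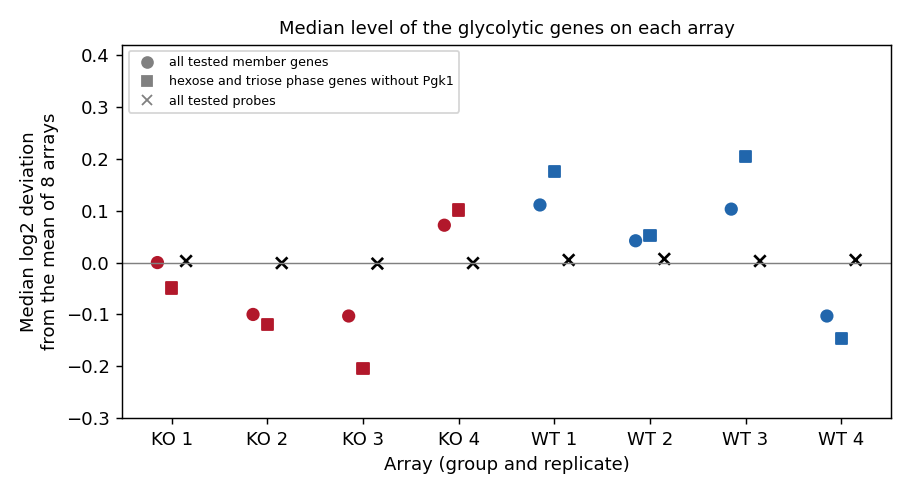
Median log2 deviation from the mean of the 8 arrays, on each ASC knockout (red) and wild type (blue) array, for the 26 tested member genes (circles), the 14 hexose and triose phase genes without Pgk1 (squares) and all tested probes (crosses). For the squares, knockout replicate 4 is above 0 and wild type replicate 4 below it, opposite to the other arrays of their groups. The circles run the same way, with knockout replicate 1 at 0. The crosses stay between -0.002 and 0.007, held near 0 by quantile normalization.

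Hexokinase, the entry step, and the Pfkfb enzymes, which make and remove a fructose bisphosphate that activates phosphofructokinase, gave no call. Hk2, the isoform induced on T cell activation, was at 0.10 ± 0.102 (SE, n = 4 per group, 95% interval -0.12 to 0.33), and Hk1 at -0.06 ± 0.12 (95% interval -0.33 to 0.20). Pfkfb4 was at 0.23 ± 0.129 and Pfkfb3 at -0.26 ± 0.194, both at dim probes that some arrays did not detect. Of the glucose transporters, Slc2a1 (GLUT1) was at 10.39, 10.27, 10.35 and 10.52 on knockout arrays and at 10.43, 10.61, 10.71 and 10.27 on wild type arrays. The Slc2a1 groups overlapped, at a log2 difference of -0.12 ± 0.108 (95% interval -0.36 to 0.12). Slc2a3 (GLUT3) was at 0.08 ± 0.11 (95% interval -0.16 to 0.33). The lactate exporters Slc16a1 and Slc16a3 were not tested: the 1 probe of Slc16a1 was detected on 0 arrays, and the 3 probes of Slc16a3 on at most 2.

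Ldha, the lactate dehydrogenase subunit that favours lactate, was at 13.80, 13.77, 13.73 and 13.90 on knockout arrays and at 14.15, 14.01, 13.95 and 13.79 on wild type arrays. Wild type replicate 4 lay among the knockout arrays, and the log2 difference was -0.17 ± 0.0929 (SE, n = 4 per group, 95% interval -0.38 to 0.03, limma adjusted p = 0.476). Pyruvate dehydrogenase, which sends pyruvate to the mitochondrion, was at 0.14 ± 0.0823 for the subunit gene Pdha1 (limma adjusted p = 0.511) and at -0.14 ± 0.0962 for Pdhb. Pdha1 was at 10.51, 10.36, 10.38 and 10.27 in the knockout and at 10.29, 10.27, 10.13 and 10.26 in wild type, groups that overlapped at 1 knockout array. The kinases that switch pyruvate dehydrogenase off were at -0.14 ± 0.142 for Pdk1 and -0.12 ± 0.0852 for Pdk3. The Pdk2 probe was detected on 0 arrays.

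The pentose phosphate path lay close to 0. Its 4 tested genes ran from -0.07 to 0.03 on the log2 scale at their brightest probes, with a median of -0.02, and 0 passed. Rpia, the ribose phosphate isomerase, was at 10.36, 10.61, 10.29 and 10.48 on knockout arrays and at 10.66, 10.50, 10.42 and 10.43 on wild type arrays. The Rpia groups overlapped, at -0.07 ± 0.0959 (SE, n = 4 per group, 95% interval -0.29 to 0.14, limma adjusted p = 0.811). The lactonase Pgls was at 0.03 ± 0.0898 (95% interval -0.17 to 0.23), and the transketolase Tkt at -0.03 ± 0.079 (95% interval -0.20 to 0.15). Tkt also had a dim probe at 0.30 ± 0.157. Taldo1, the transaldolase, was at 12.29, 12.22, 12.26 and 12.10 on knockout arrays and at 12.23, 12.22, 12.20 and 12.26 on wild type arrays. The Taldo1 groups overlapped, at -0.01 ± 0.0757 (95% interval -0.18 to 0.16, limma adjusted p = 0.964). The enzymes that make NADPH in this path, G6pdx and Pgd, were among those without a named probe.

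**Figure D4:**
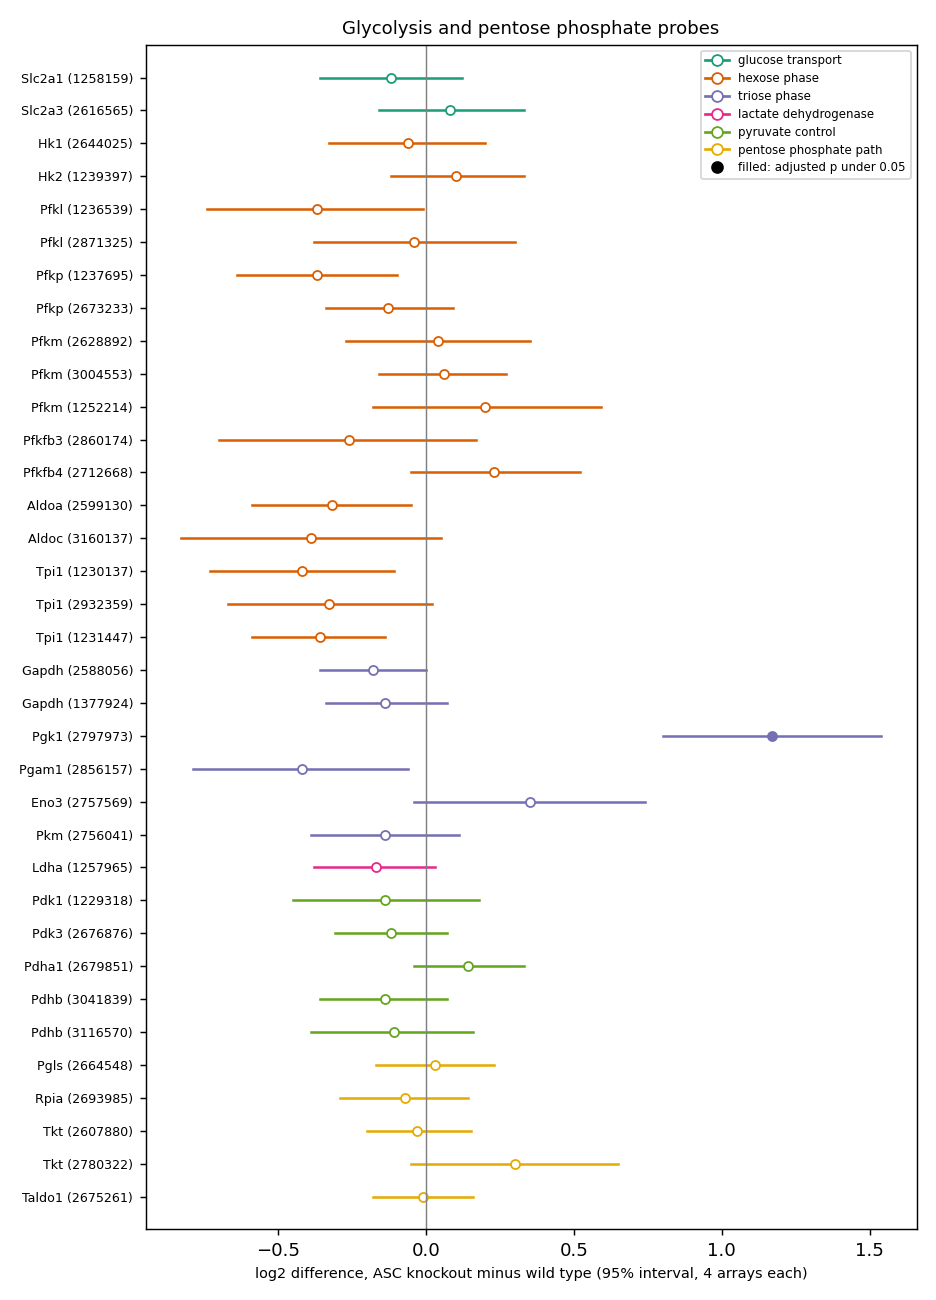
Log2 difference, ASC knockout minus wild type, with its 95% interval (4 arrays each) for the 35 tested probes of 26 genes, coloured by role, with the probe number in brackets. Pgk1 is the only filled point (limma adjusted p under 0.05), and most hexose and triose phase probes lie between -0.42 and 0.

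Over all 35 tested probes, 24 were below 0, 1 was called higher and 0 lower. At an unadjusted limma p under 0.05, 7 were lower, or 20%, where 6.4% of all tested probes were, and 1 was higher, where 6.61% of all tested probes were. The 7 include 2 probes of Tpi1, and all 7 belong to the hexose and triose phases. The groups did not overlap with the knockout below wild type at 3 probes, or 8.57%, against 4.21% of all tested probes. Per gene, at the brightest probe, 18 of 26 genes were below 0 with a median log2 difference of -0.12, beside a median of 0 over the 7759 named genes tested. Among the 1127 brightest of all tested probes the median was -0.007, and the 11 probes of this set among them had a median of -0.139. Neither list was tested as a whole.

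Of 64 other genes of these paths, 28 were tested and 0 were called (limma), with 1 higher and 1 lower at an unadjusted p under 0.05. Of all named genes, 7.26% were higher and 5.7% lower at that p. The 28 genes had a median log2 difference of 0.02, with 11 of 28 below 0. Slc2a6, a hexose transporter of lysosomes and the cell surface, was at 8.23, 8.05, 7.77 and 8.14 on knockout arrays and at 7.94, 7.55, 6.97 and 7.18 on wild type arrays. Its groups overlapped at wild type replicate 1, and the difference was 0.64 ± 0.194 (SE, n = 4 per group, limma adjusted p = 0.187). Slc16a6, a monocarboxylate transporter of the family that carries lactate, was at 7.93, 8.01, 7.95 and 7.89 on knockout arrays and at 8.26, 8.15, 8.28 and 8.15 on wild type arrays. Those groups did not overlap, with the knockout below as at 4.21% of all tested probes, at -0.27 ± 0.0751 (limma adjusted p = 0.148). Its other 2 probes were at -0.18 ± 0.117 and -0.08 ± 0.0953. Eno1b, a retrogene copy of the enolase gene Eno1, was at 0.23 ± 0.145 and may take up Eno1 transcripts.

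Of 20 regulators, 11 were tested and 1 was called, where 1.03% of all named genes were called at their brightest probe. Epas1, a hypoxia-inducible factor, was at 6.81, 7.23, 7.06 and 7.01 on knockout arrays and at 5.62, 5.71, 6.66 and 5.78 on wild type arrays. Those groups did not overlap, with the knockout above as at 3.91% of all tested probes, and wild type replicate 3 was nearest the knockout arrays. Epas1 rose by 1.08 ± 0.208 at that probe (limma adjusted p = 0.0477), but in the 8 fits without 1 array the call held only without wild type replicate 3, at adjusted p-values up to 0.156. With the replicate number as a block it did not pass (adjusted p = 0.0622), and a second probe was at 0.14 ± 0.286. Hif1a, the related factor best known for driving glycolysis, was at -0.04 ± 0.0799 (95% interval -0.21 to 0.14). Myc was at 0.28 ± 0.137 at a dim probe.

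Of the other regulators 0 were called, and 3 had an unadjusted p under 0.05, where 7.26% of all named genes were higher and 5.7% lower. Txnip, which restrains glucose uptake, was at 0.37 ± 0.156 (SE, n = 4 per group, limma adjusted p = 0.351). Bhlhe40, a transcription factor of activated T cells, was at 0.36 ± 0.104 (limma adjusted p = 0.165), with all knockout arrays above all wild type arrays, as at 3.91% of all tested probes. Bhlhe40 passed in 3 of 20 alternatives, without background correction (limma adjusted p = 0.0422), from the authors' deposited table (0.0421) and with a variance trend and robust moderation (0.0212). Egln3, an oxygen-sensing hydroxylase that marks HIF for decay, was at -0.47 ± 0.205 (limma adjusted p = 0.368).

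**Figure D5:**
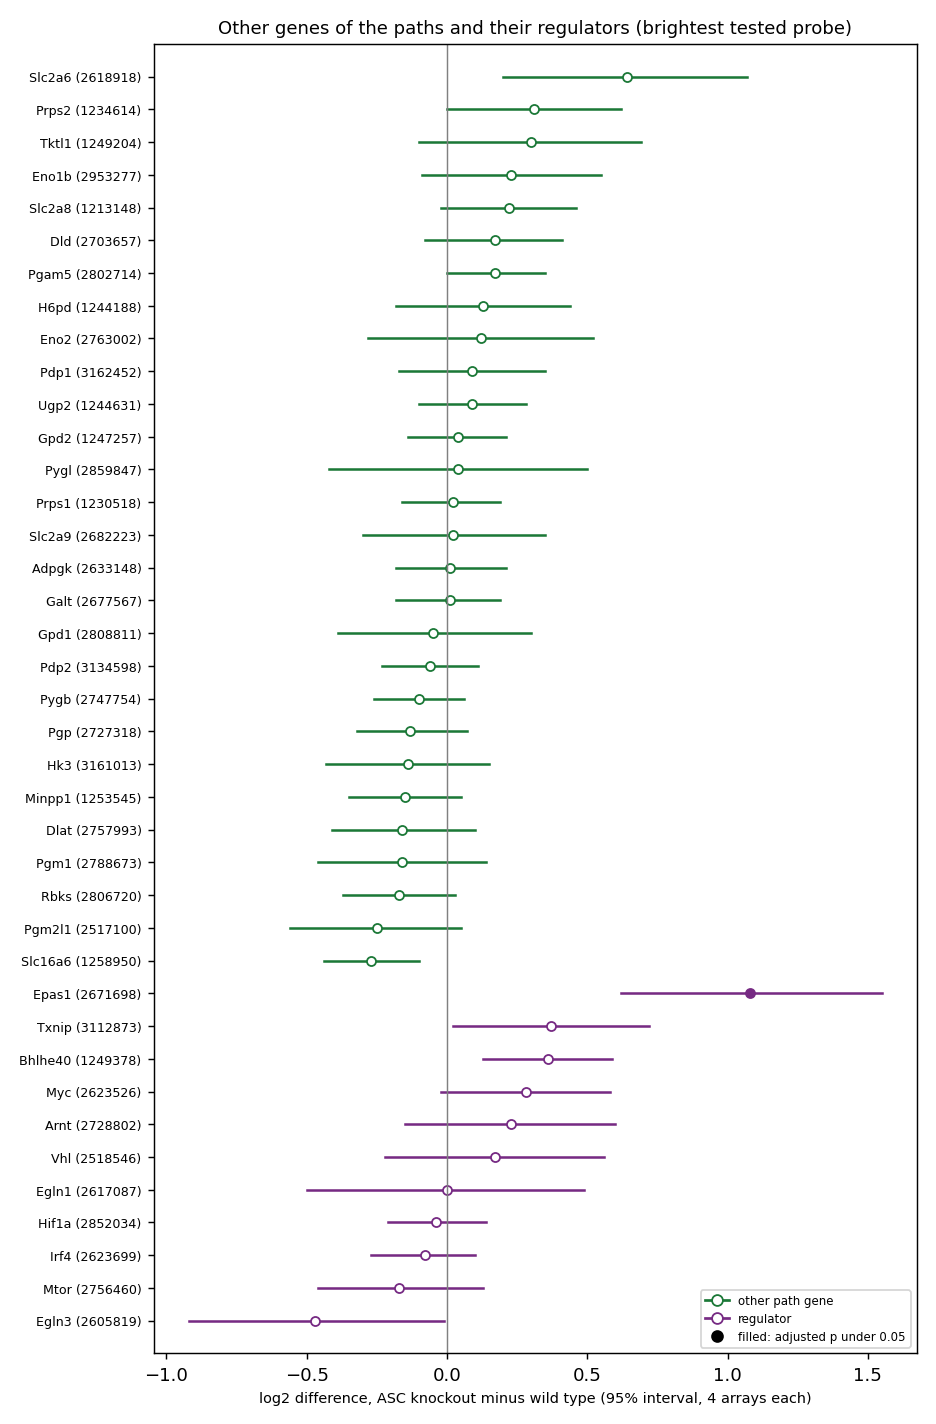
Log2 difference, ASC knockout minus wild type, with its 95% interval (4 arrays each) at the brightest tested probe of 28 other genes of the paths (green) and 11 regulators (purple). Epas1 at 1.08 is the only filled point (limma adjusted p under 0.05).

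Some genes listed as markers of other T cells were higher in the knockout, and 1 of them was called. The CD4 and regulatory T cell list, 5 of 6 genes tested, summed to 3707 to 4582 in normalized intensity on knockout arrays and to 2338 to 3354 on wild type arrays, with Foxp3, the regulatory T cell factor, called higher at 1.09 ± 0.138 (limma adjusted p = 0.00576). A second Foxp3 probe was at 1.01 ± 0.241 (limma adjusted p = 0.103). Ctla4 was at 0.63 ± 0.184, Il2ra at 0.51 ± 0.176 and Tnfrsf18 at 0.38 ± 0.0992 and 0.45 ± 0.113 at its 2 probes. All were at an unadjusted p under 0.05, with limma adjusted p-values from 0.116 to 0.24. Of all named genes at their brightest probe, 7.26% were higher at that unadjusted p and 1.03% were called. At their brightest probes Foxp3, Ctla4, Il2ra and Tnfrsf18 were detected on all 8 arrays, and the Cd4 probe on 1. The other tested gene of the list, Zbtb7b, was at 0 ± 0.111 (limma adjusted p = 0.991). On knockout arrays Ctla4 averaged 11.44 and Tnfrsf18 10.33 in log2 intensity at their brightest probes, against 6.94 for Foxp3 and 6.06 for Il2ra. The sum of the list thus rested mostly on Ctla4 and Tnfrsf18. In bulk samples such as these, fewer cells of a type and less RNA per cell cannot be told apart. The 5 tested myeloid genes of 8 summed to 1734 to 3431 on knockout arrays and to 2025 to 2818 on wild type arrays, ranges that overlapped. Within that list, S100a9 was at 1.08 ± 0.329 (limma adjusted p = 0.187) and S100a8 at 0.83 ± 0.32 (limma adjusted p = 0.301), both neutrophil proteins. The lysozyme genes Lyz1, at -0.17 ± 0.201, and Lyz2, at -0.21 ± 0.19 at its brightest tested probe, lay on the other side of 0. Those 4 were detected on all 8 arrays at their brightest probes, and Itgam on 0. The B cell list had 1 tested gene of 6, at 94 to 198 on knockout arrays and 76 to 127 on wild type arrays. That gene, Cd79b, was detected on all 8 arrays at 0.41 ± 0.231, while Cd79a, Ms4a1 and Blk were detected on 0. The erythroid and platelet list had 1 of 6, at 94 to 237 on knockout arrays and 56 to 121 on wild type arrays, and that gene, the haemoglobin gene Hba-a1, was at 0.97 ± 0.3 (limma adjusted p = 0.196). The stromal and endothelial list had 1 of 5, at 121 to 136 on knockout arrays and 103 to 118 on wild type arrays, with Col1a1, Cdh5 and Dcn detected on 0 arrays. Its tested gene, Pecam1, which some leukocytes also express, was at 0.22 ± 0.0803 at its brightest probe (limma adjusted p = 0.272). The NK list had 3 of 4, at 24456 to 25787 on knockout arrays and 22910 to 27732 on wild type arrays, with Ncr1 detected on 0 arrays. That sum was nearly all Nkg7, which averaged 14.61 in log2 intensity on knockout arrays. Klrk1 averaged 6.98 there at its brightest probe and Klrb1c 5.53. The CD8 T cell list had 5 of 7, at 72136 to 73671 on knockout arrays and 70363 to 76970 on wild type arrays. Whether the signals of these lists came from other cells or from the CD8 T cells themselves was not tested. Any part of other cells in the values of the glycolytic genes was not tested either.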

How the data were processed

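Per the labels' protocols, column-purified, DNase-treated RNA was amplified into biotinylated cRNA. GenomeStudio is the tool in the submitters' processing notes, which give no version. The authors deposited 1 intensity per probe and array, named as not normalized in the file headers, and a detection p-value beside each. The authors' deposited value table is on a log2 scale. It equalled the quantile-normalized signals, without correction for background and with every probe's median set to 0, within 0.0021, with column medians of -0.00045 to 0.00053. Its construction was read off the values, since no source states it.

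The intensities of 25697 probes were corrected with limma's nec (offset 16, detection p-values as guide), quantile-normalized and logged (log2). The 11270 probes, or 43.9%, detected at p under 0.05 on at least 4 arrays entered lmFit and eBayes, with Benjamini-Hochberg adjustment over all of them and a threshold of 0.05. The median SE was 0.109, and the number of arrays limits precision. Of all probes, 23978 carried 1 symbol and 1719 none, and 23962 were matched by Entrez ID to the GRCm38.p6 gene table, which served for names and neighbours.

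The genes and lists were chosen with earlier results of these data known. Among the members, values on every array are given for genes called, for Pgk1, for genes at an unadjusted p under 0.05, for the largest difference in each role and for genes within 20 Mb of Pycard. Genes outside the set were to be named when called or at an unadjusted p under 0.05, and any others were singled out after their values were seen. Alternatives changed background, normalization, filter, value source, weights, variance model, probes, members and arrays, or added the replicate block. Before use, the fit was tested on simulated arrays. Tools were R 4.3.3 and limma 3.58.1.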

Additional observations from a re-analysis of the deposited data

Results flagged for a closer look

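Each group of 4 arrays was searched for an array far from the rest at each of the 35 tested probes, which gave 70 groups of values. An array counted when the distance to its closest neighbour, as a ratio to the whole range of its group, was above Dixon's 95% critical value. Chance flags about 1 in 20 groups, or 3.5 of 70, and 2 were found. For Pgls, knockout replicate 1 was at 11.28 in log2 intensity, above 11.05 to 11.08 on the other knockout arrays (ratio 0.858). For Gapdh (ILMN_2588056), wild type replicate 1 was at 14.84, above 14.72 to 14.74 on the other wild type arrays (ratio 0.859).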

How the results depend on the processing

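The median log2 difference over the glycolytic and pentose phosphate genes stayed below 0 in every setting, from -0.208 with median scaling over all probes, which put 22 of 26 genes below 0 and the median of all tested probes at -0.083, to -0.064 without wild type replicate 1. Cyclic loess normalization, chosen after seeing the data, gave -0.109. Leaving out 1 array gave -0.146 to -0.064. The 1 gene called, Pgk1, became 0 genes when probes had to be detected on all 8 arrays, since Pgk1 then was not tested, and 0 to 1 when 1 array was left out, with 0 without wild type replicate 2. No other gene of the set or of the other path genes was called in any setting that was run. Over all genes, 48 were called higher and 40 lower. The counts were 96 and 70 with an offset of 50, 112 and 88 without background correction and also from the authors' deposited table, 116 and 88 with a variance trend and robust moderation set together, and 30 and 26 without a detection filter. Leaving out 1 array gave 14 to 36 higher and 15 to 32 lower. With median scaling over all probes the calls split at 36.8% higher, where the quantile-normalized fit as reported had 54.5%. Taldo1 ran from -0.04 to 0.03 when 1 array was left out, and was above 0 without knockout replicate 4. With the replicate number as a block, 26 genes were higher and 20 lower, and Pgk1 kept its call (limma adjusted p = 0.0414). Same-numbered arrays correlated in their deviations at -0.0999 to 0.132, and 5 of 8 arrays correlated best with their own number. The labels say nothing of pairing, so it was not taken as given. Dim probes near background, Pgk1 among them, have an uncertain size of difference.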

Other observations

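Isoforms of these enzymes best known from other tissues were looked up by detection. The testis isoforms Pgk2 and Gapdhs were detected on 0 arrays, and of the 3 Ldhc probes, 2 were detected on 1 array each. The liver and red cell pyruvate kinase Pklr, the muscle mutase Pgam2 and the insulin-responsive transporter Slc2a4 were detected on 0 arrays, as was Pdk4, a pyruvate dehydrogenase kinase induced by fasting. Eno2, the neuronal enolase, was detected on 4 of 4 knockout and 2 of 4 wild type arrays, at a log2 difference of 0.12 ± 0.18. Hk3, a hexokinase of myeloid cells, was detected on 4 of 4 knockout and 3 of 4 wild type arrays, at -0.14 ± 0.13. All of these genes were singled out after their values were seen.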
